A study of Rattus norvegicus with 12 samples.

Results

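Interleukin 1 and interleukin 6 are the cytokines that switch the liver to its acute phase programme. The measurements below concern 10 genes of that route in rat liver, out of 13215 genes that the array annotation names by a single symbol. They are the interleukin 1 receptor antagonist Il1rn, the receptors Il1r1, Il6r and Il6st, the transcription factor Stat3, its feedback inhibitor Socs3, and the secreted acute phase proteins Lcn2, A2m, Orm1 and Crp. The genes were taken from a list of names that was chosen with earlier results of these data known. A gene with several probe sets was to be represented by the brightest, but each of the 10 had exactly 1. The question was whether differences in the antagonist and the receptors on the drug diets extend to the transcripts of the plasma proteins.

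The livers came from 12 Sprague Dawley rats, 4 per diet, each hybridised to 1 Affymetrix whole-transcript array. All rats were housed singly, ate freely and received their diet for 7 days. The first diet contained NO-naproxen at 550 mg/kg, a form of naproxen to which a group that releases nitric oxide was attached. The second contained 400 mg/kg of naproxen itself, an anti-inflammatory painkiller that blocks the cyclooxygenases, and the controls ate a diet without either drug. Neither the age nor the sex of the rats was given in the sources used here. Whole liver was used, so fewer cells of a type and less RNA per cell cannot be told apart.

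In the textbook account, interleukin 1 binds Il1r1 and acts through nuclear factor kappa B, and Il1rn occupies the same receptor without starting a signal. Interleukin 6 binds Il6r, which joins the shared signalling chain Il6st (gp130). Janus kinases then phosphorylate Stat3, which drives acute phase genes and also Socs3, the protein that shuts the chain down again. Hepatocytes make the resulting plasma proteins. Of the 4 measured here, A2m is known as a strongly inducible acute phase protein of the rat, while Crp is abundant in rat plasma even without inflammation.

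Values are log2 of the deposited intensity plus 16, so a difference of 1 is a doubling and the change of dim probe sets is understated. Array medians lay between 89.8 and 118 intensity units over 19418 probe sets, and 0 pairs of arrays held identical values. The spread of the signals differed: the interquartile range was 2.07 to 2.62 log2 units on NO-naproxen, 2.2 to 2.53 on naproxen and 1.94 to 2.37 in controls. Control replicates 4 and 3 were the 2 narrowest arrays of the 12. Background was read from the probe sets of odour and pheromone receptors (970 in all), genes not known to act in liver. Their 95th percentile was 6.44, and a probe set whose mean is at or below it is said to lie in the olfactory receptor range. The 11 hepatocyte markers measured were all above that bound, with summed intensities of 77300 to 95500 on NO-naproxen, 78200 to 85400 on naproxen and 76300 to 90600 in controls.

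Il1rn had the largest difference among the 10 genes on both drug diets. Its log2 values were 8.82, 9.14, 8.15 and 8.52 in the NO-naproxen livers, 8.68, 8.31, 9.01 and 8.39 in the naproxen livers, and 8.68, 7.65, 7.62 and 7.11 in the control livers. Control replicate 1 lay among the drug-fed rats, and the other 3 controls lay below all 8 of them. The means were 8.66 ± 0.42 on NO-naproxen, 8.60 ± 0.32 on naproxen and 7.77 ± 0.66 in controls (SD, n = 4 each). In the limma fit across all probe sets the log2 fold change over control was 0.89 ± 0.29 (SE) for NO-naproxen, which is 1.85-fold (95% interval 0.27 to 1.51 in log2 units, unadjusted p = 0.00792, adjusted p = 0.468). For naproxen it was 0.83 ± 0.29, which is 1.78-fold (0.21 to 1.45, limma unadjusted p = 0.0121, adjusted p = 0.381). Both passed the criterion stated for the study, an unadjusted p under 0.05 with a change of at least 1.5-fold, and neither passed the adjusted threshold of 0.05.

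The spread of the arrays moved with Il1rn, and its part in the difference was tested only by refitting. With the interquartile range as a covariate the log2 fold change was 0.53 for NO-naproxen (limma, unadjusted p = 0.089) and 0.5 for naproxen (unadjusted p = 0.101), so that both left the criterion. Without control replicates 3 and 4, the arrays of narrowest spread, the values were 0.49 (unadjusted p = 0.152) and 0.43 (unadjusted p = 0.205). Leaving out control replicate 4 alone ended the naproxen call (0.61, unadjusted p = 0.0531) and not that of NO-naproxen (0.67, unadjusted p = 0.0357). Array weights gave 0.82 (unadjusted p = 0.0121) on NO-naproxen and 0.6 on naproxen, where the call ended (unadjusted p = 0.061). The log2 fold change stayed above 0 in all 24 alternatives run for each diet. Several of these can change the p but not the fold change, such as leaving out an array of the other drug diet.

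The other interleukin 1 gene, the signalling receptor Il1r1, showed no comparable difference. It measured 11.41, 11.06, 10.65 and 11.32 in NO-naproxen livers, 11.57, 10.65, 11.05 and 10.89 in naproxen livers, and 10.95, 11.2, 10.8 and 10.88 in controls. The controls, at 10.8 to 11.2, lay inside the wider ranges of both drug diets, with log2 fold changes over control of 0.15 ± 0.22 for NO-naproxen (95% interval -0.31 to 0.61) and 0.08 ± 0.22 for naproxen (-0.37 to 0.54). With the interquartile range as a covariate these values were -0.15 and -0.19.

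Il6r, the receptor subunit that binds interleukin 6, repeated the layout of Il1rn. The values were 10.39, 11.16, 10.63 and 10.23 on NO-naproxen, 10.42, 10.52, 10.86 and 10.39 on naproxen, and 10.98, 9.76, 9.61 and 9.37 in controls. Control replicate 1 was the second highest of the 12 arrays, and the other 3 controls lay below all 8 drug-fed rats. Group means were 10.60 ± 0.40 on NO-naproxen, 10.55 ± 0.21 on naproxen and 9.93 ± 0.72 in controls (SD, n = 4 each). The log2 fold change over control was 0.67 ± 0.29 for NO-naproxen, 1.59-fold and past the study criterion (95% interval 0.05 to 1.3, limma unadjusted p = 0.0371, adjusted p = 0.468). For naproxen it was 0.62 ± 0.29, 1.53-fold and just short of the criterion (-0.01 to 1.24, limma unadjusted p = 0.0527, adjusted p = 0.396).

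The Il6r difference was under the unadjusted threshold in fewer alternatives than that of Il1rn. The unadjusted p of Il1rn was under 0.05 in 22 of 24 alternatives on NO-naproxen and in 20 of 24 on naproxen. For Il6r on NO-naproxen it was in 13 of 24, with log2 fold changes between 0.23 and 1.02, and the call was lost without NO-naproxen replicate 2 (0.49, limma unadjusted p = 0.132), replicate 3 (0.66, unadjusted p = 0.0578), and each of control replicates 2 to 4 (0.61, 0.56 and 0.49). On naproxen it was in 6 of 24, with log2 fold changes between 0.18 and 0.97. The lowest value of each range came without control replicates 3 and 4, and the highest without control replicate 1.

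Promoter sequences are shown for the pair of genes that differed most together, Il1rn and Il6r, so that they can be read against 2 of the plasma protein genes, Lcn2 and Orm1, printed further on. Each is the 250 bases before the transcription start in the RefSeq promoter table of build GRCr8, 5′ to 3′ on the strand of the gene, and capitals mark letters that match one of 4 motifs searched on both strands. The Il1rn window is chr3:27520072-27520321 on the plus strand and the Il6r window is chr2:177645210-177645459 on the minus strand.
Il1rn: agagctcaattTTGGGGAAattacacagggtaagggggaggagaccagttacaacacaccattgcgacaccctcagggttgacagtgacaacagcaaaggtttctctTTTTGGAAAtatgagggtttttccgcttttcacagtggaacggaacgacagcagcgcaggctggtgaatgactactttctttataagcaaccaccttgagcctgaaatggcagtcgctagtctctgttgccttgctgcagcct
Il6r: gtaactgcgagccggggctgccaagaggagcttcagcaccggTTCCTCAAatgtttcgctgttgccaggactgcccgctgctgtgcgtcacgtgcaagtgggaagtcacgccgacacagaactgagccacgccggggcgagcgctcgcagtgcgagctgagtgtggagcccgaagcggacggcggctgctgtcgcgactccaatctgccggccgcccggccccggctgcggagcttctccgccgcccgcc
The capitals in both are matches to TTNNGNAA, the form of a C/EBP site, the factor that acts with Stat3 on many acute phase genes. Il1rn held it at 239 to 232 bases before the start and in a pair of overlapping matches between 143 and 135, and Il6r at 208 to 201 on the other strand. This short motif was present in 37.2% of the 33469 promoters of the table and in 6 of the 9 genes matched here (Il1rn, Il6r, Il6st, Lcn2, Orm1 and Crp). The palindrome TTCNNNGAA, to which STAT proteins bind, was present in 7.67% of all promoters and in 0 of the 9. At so low a share, its absence from 9 windows of 250 bases says little about these genes.

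Il6st, the signal-transducing partner of Il6r, lay well above the background bound in every liver. It measured 11.56, 11.69, 11.29 and 11.2 on NO-naproxen, 11.67, 11.08, 11.46 and 11.38 on naproxen, and 11.67, 11.38, 10.67 and 10.78 in controls. Control replicates 3 and 4 were the lowest of all 12 arrays, while control replicates 1 and 2 lay within the range of the drug-fed rats. Over control, the log2 fold changes were 0.31 ± 0.23 for NO-naproxen (95% interval -0.17 to 0.79) and 0.27 ± 0.23 for naproxen (-0.21 to 0.75). Without those 2 controls, which are also the arrays of narrowest spread, they were -0.09 and -0.13.

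Stat3 was higher on average on both diets, by less than 1.5-fold. Its values were 10.96, 10.6, 10.4 and 10.48 in NO-naproxen livers, 10.67, 10.73, 10.58 and 10.54 in naproxen livers, and 10.62, 10.07, 10.38 and 9.99 in control livers. As with Il1rn and Il6r, control replicate 1 lay among the drug-fed rats and the other 3 controls lay below them all, although control replicate 3 was only just below the lowest NO-naproxen value. The log2 fold change over control was 0.35 ± 0.18 for NO-naproxen (95% interval -0.04 to 0.73, limma unadjusted p = 0.0735) and 0.37 ± 0.18 for naproxen (-0.01 to 0.75, unadjusted p = 0.057). Neither passed the criterion, and over the 24 alternatives the values ran from 0.2 to 0.46 on NO-naproxen and from 0.28 to 0.49 on naproxen.

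Socs3 was dim, with a mean of 6.46 over all arrays, and scattered most in the controls. It measured 6.2, 7.16, 7.13 and 6.34 on NO-naproxen, 6.1, 6.77, 6.31 and 6.57 on naproxen, and 5.46, 5.54, 6.78 and 7.16 in controls. Control replicates 1 and 2 were the lowest of the 12 arrays, whereas control replicates 3 and 4, the arrays of narrowest spread, were among the highest. The log2 fold changes over control were 0.47 ± 0.35 for NO-naproxen (95% interval -0.27 to 1.21) and 0.2 ± 0.35 for naproxen (-0.54 to 0.94). Without control replicates 3 and 4 they were 1.21 (limma unadjusted p = 0.00106) and 0.94 (unadjusted p = 0.00655), both with an adjusted p of 1, and without control replicate 1 the naproxen value was -0.06. The Socs3 value therefore rested on which controls were used.

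**Figure D1:**
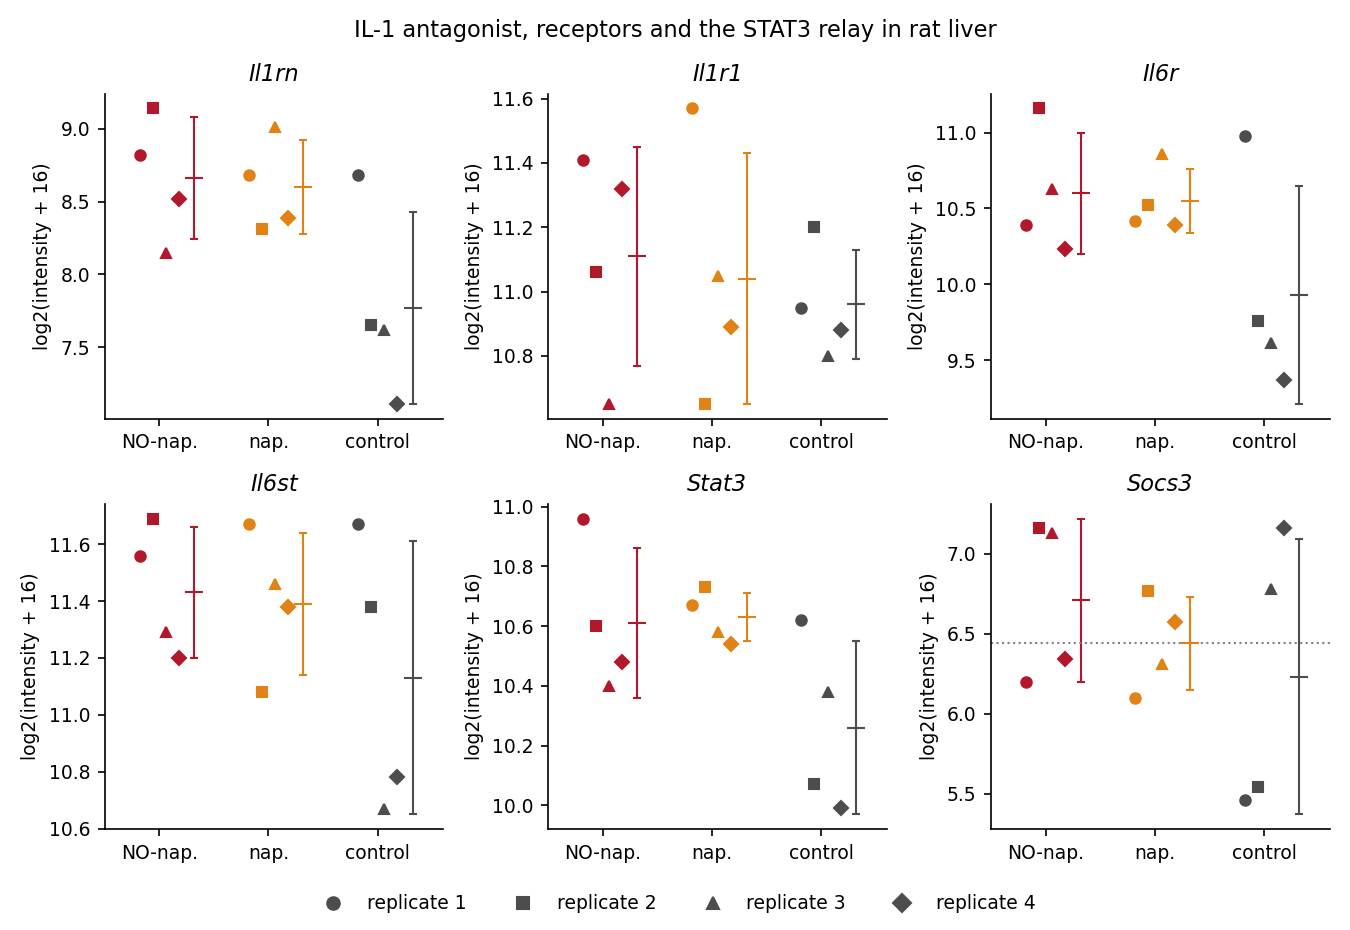
Log2(intensity + 16) of the 6 signalling genes on each array, with a panel and a vertical scale of its own for every gene. Points are single rats (the marker gives the replicate number), bars are mean ± SD of 4, and the dotted line in the Socs3 panel is the background bound of 6.44. In the Il1rn, Il6r and Stat3 panels control replicate 1 (8.68, 10.98 and 10.62) lies among the drug-fed rats and the other 3 controls lie below them.

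None of the 4 plasma proteins had the layout of Il1rn, Il6r and Stat3, in which all 8 drug-fed rats lay above control replicates 2 to 4. That layout was chosen after the values of Il1rn, Il6r and Stat3 were seen, and 1.46% of all probe sets had it. Its absence from 4 genes was therefore likely beforehand and cannot decide whether the differences extend to the plasma proteins. For Crp and Orm1 the intervals given below bear on that question. Crp, C-reactive protein, was bright and almost level, at 13.19, 13.38, 13.33 and 13.08 in NO-naproxen livers, 13.26, 13.17, 13.1 and 13.25 in naproxen livers, and 13.32, 13.21, 13.17 and 13.2 in controls. The groups overlapped throughout, and the log2 fold changes over control were 0.02 ± 0.14 for NO-naproxen (95% interval -0.29 to 0.33) and -0.03 ± 0.14 for naproxen (-0.34 to 0.28). A change of 1.5-fold in either direction lies outside both intervals. Crp read 8660 to 10700 intensity units, not far below albumin (Alb) at 11800 to 14800. Whether the array understates changes at such brightness was not tested.

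Orm1, alpha-1-acid glycoprotein, measured 11.41, 11.69, 11.24 and 11.78 on NO-naproxen, 11.56, 11.5, 11.14 and 11.23 on naproxen, and 11.52, 11.23, 11.14 and 11.89 in controls. The highest of the 12 values came from a control, and the lowest was shared by a naproxen and a control liver. Log2 fold changes over control were 0.08 ± 0.2 for NO-naproxen (95% interval -0.33 to 0.5) and -0.09 ± 0.2 for naproxen (-0.51 to 0.33), and a change of 1.5-fold lies outside these intervals too.

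Lcn2, the iron-sequestering lipocalin 2, lay in the olfactory receptor range. It measured 5, 5.12, 5.92 and 5.14 in NO-naproxen livers, 5.47, 5.3, 5.02 and 5.82 in naproxen livers, and 6.12, 4.89, 5.93 and 5.88 in control livers. The highest value was that of control replicate 1, the rat whose Il1rn and Il6r were high. The log2 fold changes over control were -0.41 ± 0.27 for NO-naproxen (95% interval -0.99 to 0.17) and -0.3 ± 0.27 for naproxen (-0.88 to 0.28), at levels not told from background.

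A2m, alpha-2-macroglobulin, gave no signal above background, at 4.25 to 5.16 on NO-naproxen, 4.21 to 5.75 on naproxen and 4.33 to 5.71 in controls. All 12 values lay under the background bound, and the log2 fold changes of -0.41 ± 0.33 for NO-naproxen and -0.11 ± 0.33 for naproxen lie within that range.

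The promoter windows of 2 plasma protein genes are given in the same form, for Lcn2 at chr3:36081781-36082030 on the minus strand and for Orm1 at chr5:81788259-81788508 on the plus strand. A2m had no entry in the table.
Lcn2: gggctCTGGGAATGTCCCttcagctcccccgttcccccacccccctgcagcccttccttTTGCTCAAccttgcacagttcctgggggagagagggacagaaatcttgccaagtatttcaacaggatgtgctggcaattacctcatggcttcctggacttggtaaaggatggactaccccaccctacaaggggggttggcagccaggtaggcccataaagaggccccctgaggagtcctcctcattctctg
Orm1: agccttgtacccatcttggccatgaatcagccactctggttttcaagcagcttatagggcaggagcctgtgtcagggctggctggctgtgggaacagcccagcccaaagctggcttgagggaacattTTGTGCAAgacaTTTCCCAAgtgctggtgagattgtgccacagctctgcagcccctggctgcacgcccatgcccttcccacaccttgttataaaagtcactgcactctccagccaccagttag
Lcn2 was the only one of the 9 with CTGGGAA, the core of the classical interleukin 6 response element, which 9.56% of all promoters held. In Lcn2 it lies at 245 to 239 bases before the start and overlaps a kappa B match at 242 to 233, so the first run of capitals covers both. The kappa B motif was found in 6.33% of all promoters and in 3 of the 9 (Il1r1, Socs3 and Lcn2). Orm1 held TTNNGNAA at 123 to 116 and at 111 to 104, and Lcn2 at 191 to 184. A match of letters is not a bound site.

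**Figure D2:**
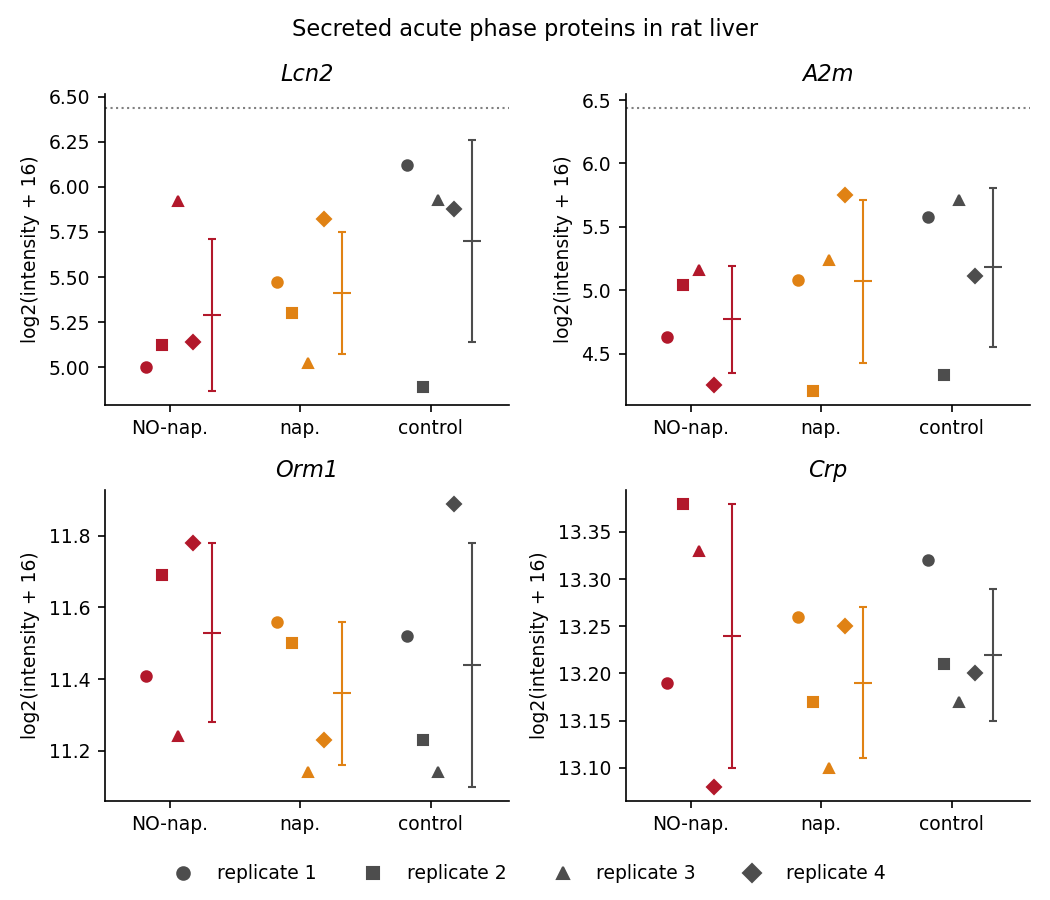
Log2(intensity + 16) of the 4 secreted acute phase proteins on each array, each panel with its own vertical scale. Points are single rats, bars are mean ± SD of 4, and the dotted line in the Lcn2 and A2m panels marks 6.44, below which all of their values lie. Orm1 and Crp are bright, and the 3 diets overlap in every panel.

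Counted over the 10 genes, 0 passed the adjusted threshold against control on either diet, where limma called 0% of the 19418 probe sets for NO-naproxen and 0% for naproxen. The smallest adjusted p of any probe set was 0.468 on NO-naproxen and 0.245 on naproxen. At an unadjusted p under 0.05, 10.4% of probe sets passed on NO-naproxen and 12.7% on naproxen, against 2 of the 10 genes (Il1rn and Il6r) and 1 of the 10 (Il1rn). The study criterion was passed upwards by the same 2 genes on NO-naproxen, beside 1.78% of all probe sets, and by Il1rn on naproxen, beside 0.875%. None of the 10 passed it downwards, where 2.02% of probe sets did on NO-naproxen and 4.97% on naproxen. Because the 10 genes were chosen with earlier results of these data known, their counts and medians beside all probe sets are descriptive. They are not an independent test of the set.

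All 6 signalling genes had a log2 fold change above 0 on each diet, also after quantile normalization and median centring, but with the interquartile range as a covariate Il1r1 was below 0 on both diets and Il6st on naproxen. Of the 4 plasma proteins 2 were above 0 on NO-naproxen and 0 on naproxen, where A2m, Orm1 and Crp gave 0, 0.03 and 0.09 after median centring. Over all probe sets 50.1% were above 0 on NO-naproxen and 45.9% on naproxen. The median log2 fold change of the 10 genes was 0.23 on NO-naproxen, where that of all probe sets was 0, and 0.14 on naproxen, where that of all probe sets was -0.03. Both comparisons use the same 4 control arrays, so their agreement is not independent.

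**Figure D3:**
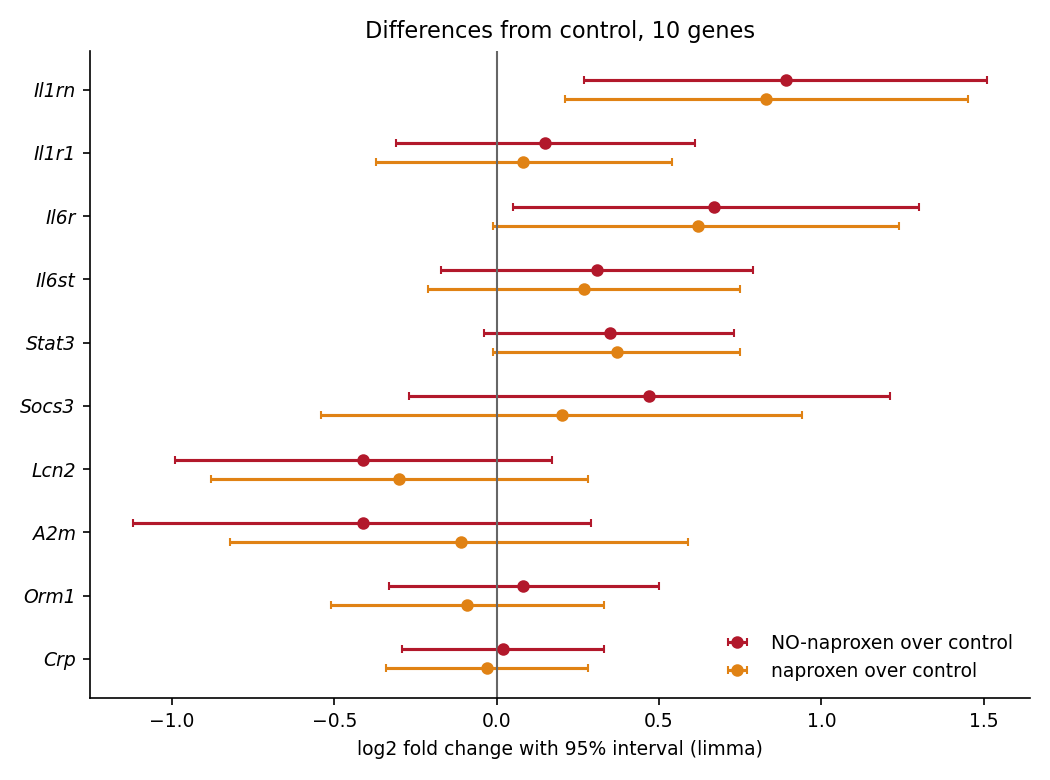
Log2 fold change over control (horizontal axis) of the 10 genes, NO-naproxen above and naproxen beneath for each gene, with 95% intervals from limma. Il1rn lies farthest above 0 (0.89 and 0.83), followed by Il6r (0.67 and 0.62), and the intervals of Crp are the narrowest, within 0.34 of 0.

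In 0 of the 10 genes were the 4 arrays of a drug diet separate from all 4 controls. Among all probe sets 3.35% were separate in either direction on NO-naproxen and 4.50% on naproxen. Control replicate 1 decided this for 3 genes. With it left out, a choice made after its values were seen, all 8 drug-fed rats lay above the remaining controls for Il1rn, Il6r and Stat3. That is 3 of the 10 genes, beside 1.46% of all probe sets, and none of the 10 lay below, beside 0.824%. The log2 fold changes of Il1rn were then 1.19 for NO-naproxen (limma unadjusted p = 0.000287, adjusted p = 0.523) and 1.13 for naproxen (unadjusted p = 0.000458, adjusted p = 0.448). Those of Il6r were 1.02 (unadjusted p = 0.000441, adjusted p = 0.538) and 0.97 (unadjusted p = 0.000705, adjusted p = 0.458). No label sets this rat apart from the other controls.

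Across the 12 livers Il1rn and Il6r varied together, and so did their deviations from the group means. Pearson's r was 0.898 (permutation p = 0.00016, adjusted p = 0.00224 over 14 relations computed) and Spearman's rho was 0.744 (permutation p = 0.00737, adjusted p = 0.0265). Without control replicates 3 and 4, the arrays farthest from the median of Il1rn, r was 0.771, and for deviations from the group means it was 0.844. Control replicate 1 was far above its group in both genes (8.68 and 10.98 against control means of 7.77 and 9.93). No r was computed without it. The permutations shuffled all 12 arrays regardless of diet, so each p includes any shared diet difference, and the deviations were given no p. Il1rn and Stat3 gave r = 0.813 (permutation p = 0.00117, adjusted p = 0.00819) and rho = 0.718 (permutation p = 0.0109, adjusted p = 0.0304), with r = 0.698 without the same 2 arrays and 0.666 within groups. Il1rn and Il6st gave r = 0.804 (permutation p = 0.00208, adjusted p = 0.00971) and rho = 0.837 (permutation p = 0.00116, adjusted p = 0.0162), with 0.562 and 0.779 in the same order. For Il6r and Il6st r was 0.771 (permutation p = 0.0039, adjusted p = 0.0136) and rho 0.701 (permutation p = 0.0135, adjusted p = 0.0315), with 0.447 and 0.711.

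Il6r and Stat3 gave r = 0.67 (permutation p = 0.0158, adjusted p = 0.0316) and rho = 0.588 (permutation p = 0.0466, adjusted p = 0.0723), with r = 0.452 without control replicates 3 and 4 and 0.476 within groups. Il6st and Stat3 gave r = 0.541 (permutation p = 0.067, adjusted p = 0.104) and rho = 0.579 (permutation p = 0.0516, adjusted p = 0.0723), with r = 0.252 without them and 0.388 within groups. All 6 pairs weakened without those 2 controls. These pairs were looked at because of their values, and the points share the array and its spread of signal.

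That spread followed Il1rn over the same arrays, with r = 0.724 between Il1rn and the interquartile range (permutation p = 0.00753, adjusted p = 0.0176) and rho = 0.795 (permutation p = 0.00295, adjusted p = 0.0206). The r was 0.498 without NO-naproxen replicate 2 and control replicate 4 and 0.556 within groups. For Il6r the same relation was r = 0.506 (permutation p = 0.0945, adjusted p = 0.132) and rho = 0.438 (permutation p = 0.154, adjusted p = 0.196), and r was 0.074 without those 2 arrays. Il6st gave r = 0.735 with the interquartile range (permutation p = 0.00662, adjusted p = 0.0176) and rho = 0.744 (permutation p = 0.00756, adjusted p = 0.0265), with 0.587 without them and 0.661 within groups. Stat3 gave r = 0.486 (permutation p = 0.109, adjusted p = 0.139) and rho = 0.587 (permutation p = 0.0493, adjusted p = 0.0723), with r = 0.292 without them.

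**Figure D4:**
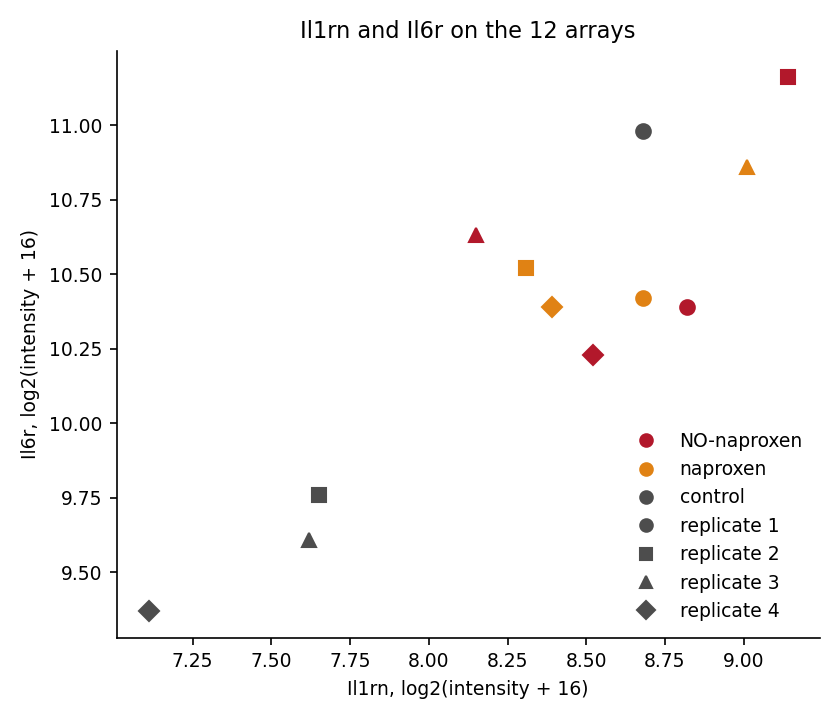
Il6r (vertical axis) against Il1rn (horizontal axis), both as log2(intensity + 16), 1 point per rat, coloured by diet and with the marker giving the replicate number. Control replicates 2 to 4 stand at the lower left (Il1rn 7.11 to 7.65, Il6r 9.37 to 9.76) and control replicate 1 (8.68, 10.98) stands among the 8 drug-fed rats.

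Myeloid cells make Il1rn as well as hepatocytes do, so markers of other cells were read beside it. All 17 Kupffer cell and macrophage markers measured were above the background bound. Of these, 15 had a log2 fold change above 0 on NO-naproxen and 16 on naproxen, with medians of 0.28 and 0.23. Over all probe sets the shares above 0 were 50.1% and 45.9%. At an unadjusted p under 0.05, 3 of the 17 passed upwards on NO-naproxen, beside 5.49% of all probe sets, and 1 on naproxen, beside 3.16%. The leukocyte phosphatase Ptprc had 0.67 ± 0.27 on NO-naproxen (limma unadjusted p = 0.0237) and passed the study criterion there. The complement receptor Vsig4 had 0.44 ± 0.19 on NO-naproxen (unadjusted p = 0.0292) and 0.42 ± 0.19 on naproxen (unadjusted p = 0.0386), and the growth factor receptor Csf1r had 0.5 ± 0.21 (unadjusted p = 0.0326) and 0.35 ± 0.21. The 17 markers' summed intensity was 9650 to 15300 on NO-naproxen, 9840 to 12800 on naproxen and 9510 to 12700 in controls, with the control maximum in replicate 1. Cd14, the brightest of the 17, weighs most in this sum and had -0.17 ± 0.21 on NO-naproxen and -0.08 ± 0.21 on naproxen. The sum gave r = 0.447 with Il1rn (permutation p = 0.146, adjusted p = 0.17) and rho = 0.223 (permutation p = 0.481, adjusted p = 0.481), and r was 0.003 without NO-naproxen replicate 2 and control replicate 4. With Il6r it gave r = 0.66 (permutation p = 0.0199, adjusted p = 0.0349) and rho = 0.654 (permutation p = 0.0234, adjusted p = 0.0468), and r was 0.399 without those arrays. With Il6st r was 0.433 (permutation p = 0.163, adjusted p = 0.175) and rho 0.274 (permutation p = 0.385, adjusted p = 0.415). With Stat3 r was 0.301 (permutation p = 0.342, adjusted p = 0.342) and rho 0.277 (permutation p = 0.382, adjusted p = 0.415).

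Of 13 neutrophil markers 9 lay in the olfactory receptor range, S100a9 among them, and the summed intensity was 819 to 1180 on NO-naproxen, 598 to 1100 on naproxen and 754 to 1320 in controls. Fcgr3a, the brightest of the 13 by its mean of 8.17, weighs heavily in this sum. It had 0.12 ± 0.19 on NO-naproxen and -0.01 ± 0.19 on naproxen. Above 0 were 5 of the 13 on NO-naproxen and 3 on naproxen, beside 50.1% and 45.9% of all probe sets. Below 0 were 8 on NO-naproxen (list median -0.19) and 10 on naproxen (list median -0.41). Past the unadjusted threshold downwards were 2 and 3, beside 4.86% and 9.50% of all probe sets. On NO-naproxen these were the formyl peptide receptor Fpr2 (-0.82 ± 0.28, limma unadjusted p = 0.00961), which passed the study criterion and is in the olfactory receptor range, and the collagenase Mmp8 (-0.5 ± 0.18, unadjusted p = 0.0152). On naproxen they were Mmp8 (-0.54 ± 0.18, unadjusted p = 0.00985), Fpr1 (-0.54 ± 0.23, unadjusted p = 0.032) and Ltf (-0.58 ± 0.26, unadjusted p = 0.0423).

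Of 10 sinusoidal endothelial markers listed, 4 were measured, and Pecam1, Cdh5, Kdr, Stab1, Stab2 and Lyve1 were not. All 4 were above 0 on each diet (medians 0.28 on NO-naproxen and 0.41 on naproxen), beside 50.1% and 45.9% of all probe sets. Past the unadjusted threshold upwards were 0 on NO-naproxen and 3 on naproxen, beside 5.49% and 3.16%. The 4 markers summed to 1350 to 1700 on NO-naproxen, 1540 to 1780 on naproxen and 1060 to 1450 in controls. Oit3, with all arrays of each drug diet above the controls, had 0.29 ± 0.15 on NO-naproxen (limma unadjusted p = 0.0746) and 0.42 ± 0.15 on naproxen (unadjusted p = 0.0142). Over all probe sets 3.35% had separate arrays in either direction on NO-naproxen and 4.50% on naproxen. Flt4 had 0.3 ± 0.17 and 0.4 ± 0.17 (unadjusted p = 0.102 and unadjusted p = 0.0344), and Clec4g had 0.06 ± 0.22 and 0.54 ± 0.22 (unadjusted p = 0.774 and unadjusted p = 0.0257).

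Of 7 stellate cell markers 6 were above 0 on NO-naproxen and 7 on naproxen (medians 0.28 and 0.23), beside 50.1% and 45.9% of all probe sets. Past the unadjusted threshold upwards were 1 on NO-naproxen and 2 on naproxen, beside 5.49% and 3.16%. The 7 markers summed to 3090 to 4170 on NO-naproxen, 3060 to 3980 on naproxen and 2380 to 3740 in controls. Rgs5, a marker of contractile cells around vessels, had 0.58 ± 0.2 on NO-naproxen (limma unadjusted p = 0.0108) and 0.71 ± 0.2 on naproxen (unadjusted p = 0.00276, past the study criterion), with all arrays of each drug diet above the controls. Lrat had 0.41 ± 0.22 on NO-naproxen, and Dcn had 0.52 ± 0.24 on naproxen (unadjusted p = 0.0443). Of the 11 hepatocyte markers 6 were above 0 on NO-naproxen and 5 on naproxen, beside the same 50.1% and 45.9%. Tdo2, the tryptophan-degrading enzyme of hepatocytes, had 0.5 ± 0.15 on NO-naproxen (unadjusted p = 0.00503) and 0.62 ± 0.15 on naproxen (unadjusted p = 0.00106, past the study criterion), again with separate arrays on both. Pck1 had 0.25 ± 0.26 on NO-naproxen, and Tat had -0.42 ± 0.19 on naproxen (unadjusted p = 0.0422). The part of these cells in the Il1rn and Il6r differences was not tested.

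NO-naproxen and naproxen, which differ by the nitric oxide-releasing group and also in dose by weight, were compared directly for the same genes. Of the 10 genes 0 passed the adjusted threshold (0% of all probe sets), 0 the study criterion (0.572% of probe sets) and 0 an unadjusted p under 0.05 (1.92%), and 0 had separate arrays (1.17%). The log2 fold changes of NO-naproxen over naproxen ran from -0.3 for A2m (95% interval -1.01 to 0.4) to 0.27 for Socs3 (-0.47 to 1.01), with 7 of 10 above 0, beside 64.1% of all probe sets. For Il1rn the difference was 0.06 (95% interval -0.56 to 0.68), for Il6r 0.05 (-0.57 to 0.68) and for Stat3 -0.02 (-0.41 to 0.36). These intervals are wide enough to hold a 1.5-fold difference in Il1rn or Il6r in one direction, but not in Stat3. Crp had 0.05 (-0.26 to 0.36). With 550 mg/kg in one diet and 400 mg/kg in the other, compound and dose by weight cannot be told apart. The doses were not compared in molar terms.

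The rest of the pathway was read from lists by role. Over all probe sets, the upward and downward shares at an unadjusted p under 0.05 were 5.49% and 4.86% on NO-naproxen and 3.16% and 9.50% on naproxen. The shares with a log2 fold change above 0 were 50.1% on NO-naproxen and 45.9% on naproxen. None of the genes on these lists passed the adjusted threshold. Listed genes without a probe set of a single symbol were not measured, among them Nfkbia, Cebpd, Mt1 and Mt2A. Among 7 measured interleukin 1 family ligands and processing genes, 7 had a log2 fold change above 0 on NO-naproxen and 6 on naproxen, with medians of 0.3 and 0.28, and 2 passed the unadjusted threshold upwards on each diet. On NO-naproxen these were the alarmin Il33 (0.61 ± 0.24, limma unadjusted p = 0.021), which also passed the study criterion, and Il18 (0.48 ± 0.21, unadjusted p = 0.0395). On naproxen they were Casp1, the protease that matures interleukin 1 beta (0.44 ± 0.19, unadjusted p = 0.0353), and Il1b itself (0.55 ± 0.25, unadjusted p = 0.0413), whose mean lay in the olfactory receptor range. Il1a had 0.19 on NO-naproxen and -0.01 on naproxen.

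Of 18 interleukin 1 receptor and relay genes, 15 had a log2 fold change above 0 on NO-naproxen (median 0.12) and 12 on naproxen (median 0.06). The adaptor Tab2 passed the unadjusted threshold on NO-naproxen (0.45 ± 0.2, limma unadjusted p = 0.0425), and none did on naproxen. The ubiquitin ligase Traf6 had 0.38 ± 0.23 on NO-naproxen, and the interleukin 18 receptor chain Il18r1 had -0.29 ± 0.28 on NO-naproxen and -0.5 ± 0.28 on naproxen. The accessory chain Il1rap had 0.21 ± 0.17 on NO-naproxen and 0.34 ± 0.17 on naproxen. The decoy receptor Il1r2 had -0.16 ± 0.2 on NO-naproxen and -0.24 ± 0.2 on naproxen.

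In the interleukin 6 family 5 of 12 genes were above 0 on NO-naproxen and 4 of 12 on naproxen (medians -0.06 and -0.17), beside 50.1% and 45.9% of all probe sets. Il6 itself was in the olfactory receptor range on all arrays, at 4.84 to 5.42 on NO-naproxen, 4.68 to 5.35 on naproxen and 4.89 to 5.5 in controls. The interleukin 11 receptor chain Il11ra1 passed the unadjusted threshold on NO-naproxen (0.47 ± 0.17, limma unadjusted p = 0.0137), with 8.13, 8.52, 7.88 and 7.95 on that diet, all above the controls at 7.63, 7.68, 7.78 and 7.51. On naproxen it had 0.26 ± 0.17. The ligand Il11 had -0.51 ± 0.28 on NO-naproxen, and the ligand Clcf1 had -0.38 ± 0.23 on naproxen. The oncostatin M receptor Osmr had 0.34 ± 0.2 on NO-naproxen and 0.26 ± 0.2 on naproxen, and Cntf, at background level, passed the criterion downwards on naproxen (-0.63 ± 0.25, unadjusted p = 0.0246).

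In the Janus kinase and STAT list 11 of 16 genes were above 0 on NO-naproxen and 10 of 16 on naproxen (medians 0.26 and 0.12). On NO-naproxen 3 passed the unadjusted threshold upwards: Ptpn2, a phosphatase that removes the activating mark from kinases and STATs (0.6 ± 0.25, limma unadjusted p = 0.0278, also past the criterion), the kinase Jak2 (0.52 ± 0.23, unadjusted p = 0.0372) and Stat6 (0.41 ± 0.19, unadjusted p = 0.0473). On naproxen 1 did, Stat6 (0.45 ± 0.19, unadjusted p = 0.0317), at 8.84, 8.74, 8.53 and 8.55 against 8.31, 8.37, 8.19 and 8.01 in controls. Of 8 early regulators downstream of Stat3 and C/EBP, 5 and 4 were above 0. The kinase Pim1 had 0.48 ± 0.23 on NO-naproxen (unadjusted p = 0.0581) and 0.53 ± 0.23 on naproxen (unadjusted p = 0.0385). The early response factor Junb had 0.34 ± 0.27 on NO-naproxen and 0.55 ± 0.27 on naproxen (unadjusted p = 0.0569), and Cebpb, the factor of the acute phase promoters, had 0.07 ± 0.22 and -0.22 ± 0.22.

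The plasma proteins measured beyond these 4 resembled Orm1 and Crp. Of 30 other positive acute phase proteins listed, 23 were measured. Kng1, Kng2, Kng2l1, Kng1l1, Saa4, Serpina3m and Serpina3c were not, so nothing can be said of them. Of the 23, 11 had a log2 fold change above 0 on NO-naproxen and 8 on naproxen, beside 50.1% and 45.9% of all probe sets. Their medians were -0.01 and -0.06, and 0 passed the unadjusted threshold on either diet. Their summed intensity was 136000 to 145000 on NO-naproxen, 123000 to 147000 on naproxen and 133000 to 152000 in controls. Haptoglobin, Hp, averaged 13.12 ± 0.1 on NO-naproxen, 13.07 ± 0.08 on naproxen and 13.11 ± 0.11 in controls (SD, n = 4 each). The fibrinogen chain Fgb had log2 fold changes of -0.05 ± 0.15 on NO-naproxen and -0.01 ± 0.15 on naproxen, and the iron hormone Hamp, a known target of Stat3, had 0.01 ± 0.23 and -0.27 ± 0.23. The widest difference on this list was that of coagulation factor VIII, F8, at 0.5 ± 0.24 on NO-naproxen (limma unadjusted p = 0.0577) and 0.38 ± 0.24 on naproxen. Next in order of p came the mannose-binding lectin Mbl1 on NO-naproxen (0.2 ± 0.18) and angiotensinogen, Agt, on naproxen (-0.21 ± 0.17). Of 10 proteins whose synthesis is reduced in the acute phase, 5 were above 0 on each diet, with Alb at 0.14 ± 0.15 on NO-naproxen and 0.05 ± 0.15 on naproxen. Apolipoprotein M, Apom, had 0.26 ± 0.22 on NO-naproxen and 0.4 ± 0.22 on naproxen. Serpina7, thyroxine-binding globulin, passed the criterion upwards on both diets (0.65 ± 0.29 and 0.73 ± 0.29, unadjusted p = 0.042 and unadjusted p = 0.0247), with a mean in the olfactory receptor range.

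**Figure D5:**
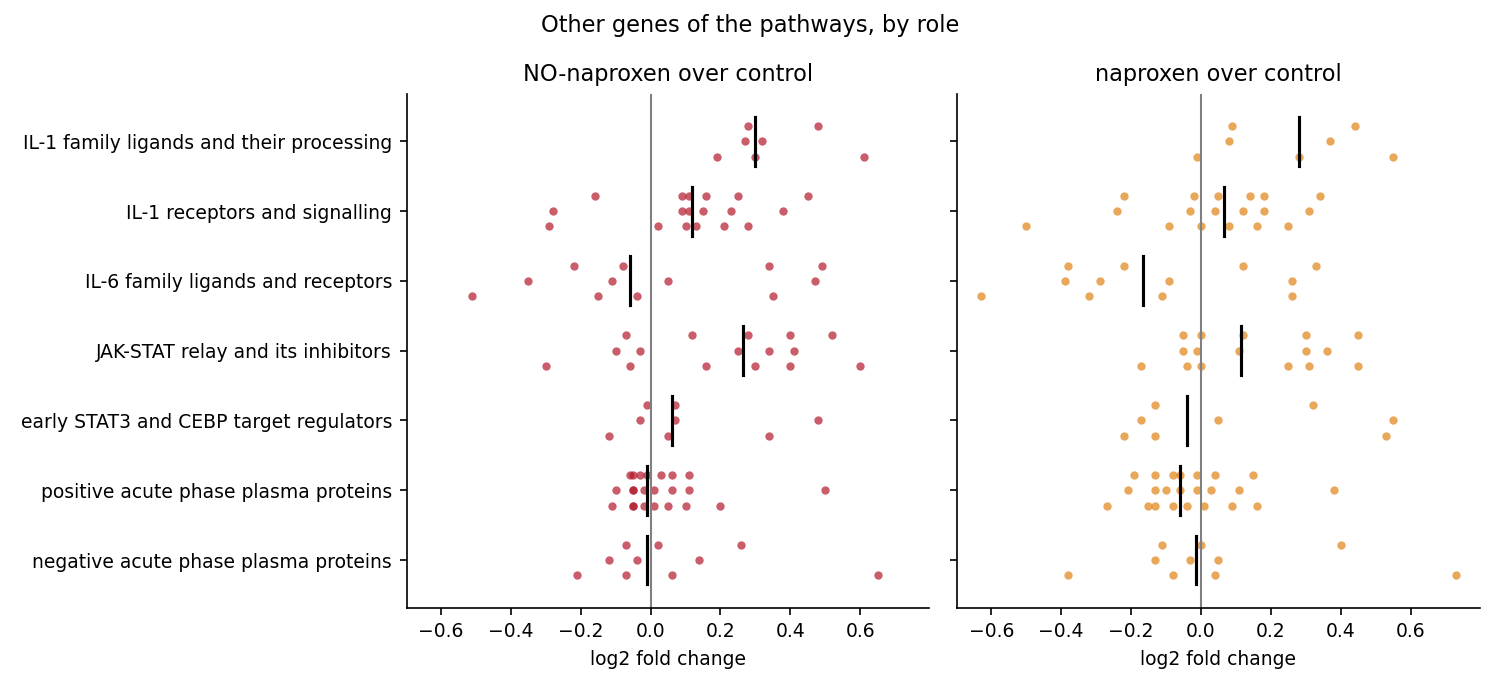
Log2 fold change over control (horizontal axis) of the other measured genes of each list, NO-naproxen on the left and naproxen on the right. Points are genes and black bars are the median of each list. The 23 positive acute phase proteins lie between -0.27 (Hamp on naproxen) and 0.5 (F8 on NO-naproxen), with medians of -0.01 on NO-naproxen and -0.06 on naproxen, while the ligand list has medians of 0.3 and 0.28.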

How the data were processed

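Liver RNA of 12 rats was measured on Affymetrix whole-transcript arrays after ribosomal RNA removal, 1 array per rat, per the labels' protocols. Deposited were linear probe set intensities that the authors made with Affymetrix Expression Console 1.1.1, per the submitters' processing notes, which name rn4 as the build. How they were normalized is not given in the sources used. The test was planned for log2 values, so 16 was added and log2 taken, with no further normalization.

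The 3 diets were fitted together in limma 3.58.1 (R 4.3.3, lmFit and eBayes, 2-sided, 12 arrays), with Benjamini-Hochberg adjustment over 19418 probe sets. The study's criterion was applied to that fit. The platform annotation pairs 13327 probe sets with exactly 1 gene symbol, and only these were named (620 have several and 5471 have none). The fit was tested on simulated data with independent normal noise and known added changes. The simulated arrays did not differ in spread by design, so how the fit handles such differences was not tested. The labels call the samples biological replicates. Precision is limited by having 4 arrays per diet: the SE of a log2 fold change had a median of 0.21.

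The genes and lists were chosen with earlier results of these data known. Besides the 10 genes, the text names the 2 genes with the smallest p per list and diet against control, and fixed examples such as Il6, Hp and Alb. Ltf and, on NO-naproxen, Stat6 and Csf1r were added to complete counts of genes past a threshold. Cd14 and Fcgr3a were added as the brightest macrophage and neutrophil markers, and some listed genes that were not measured are named as such. Correlations used 100000 permutations (scipy 1.17.1, Python 3.11.15). Alternatives were 1 probe set per gene, leaving out the dimmest 30%, added constants of 1 and 64, median centring, quantile normalization, fitting only the groups compared, a trended and robust spread, array weights, the interquartile range as a covariate, the 2 narrowest arrays left out, the replicate number as a block, a criterion of 2-fold, and each array left out. The comparison of array ranges without control replicate 1 was added after seeing the data. The replicate numbers were not treated as pairs in the main fit, because no label ties them to a shared litter or day. Deviations from the group means correlated between -0.38 and 0.48 among arrays of the same number, and 3 of 12 arrays correlated best with their own number. Between NO-naproxen and control these correlations were 0.04, 0.48, 0.46 and 0.09, and in the other comparisons the signs were mixed. Whether rats of the same number shared a day or batch was not tested.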

Additional observations from a re-analysis of the deposited data

Results flagged for a closer look

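Lcn2 on NO-naproxen replicate 3 measured 5.92, away from the other 3 rats of its group at 5, 5.12 and 5.14, and its gap exceeded Dixon's 95% critical value for 4 samples. It was the only one of 30 groups of gene and diet so marked, and chance marks about 1 in 20. The value lies under the background bound of 6.44.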

How the results depend on the processing

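Among 714 values of the 10 genes under 24 alternatives, 668 kept their direction and their side of the adjusted threshold, 46 reversed, and 0 had an adjusted p under 0.05. The causes of the reversals were not tested. Several alternatives cannot change a fold change, such as leaving out an array of the diet not compared or fitting only the groups compared. None of the 10 genes passed the adjusted threshold in the main fit. The 668 are therefore a count and not a measure of robustness. Lcn2 and A2m have no value after the filter on the dimmest 30%, which removes them, and only 12 arrays and dim signals limit what Socs3, Lcn2 and A2m can show.

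Of the 10 genes, 2 passed the study criterion on NO-naproxen, 1 with an added constant of 1, quantile normalization, only the 2 groups compared, the interquartile range as a covariate or the 2 narrowest arrays left out, and 0 at 2-fold (1 to 3 with 1 array left out). On naproxen 1 passed, 2 with median centring, 1 probe set per gene, a trended spread or the replicate block, and 0 with array weights, the interquartile range or 2-fold (0 to 2 with 1 array left out). The replicate block moved no other count of calls beyond 1.5 times.

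On NO-naproxen 738 probe sets passed the criterion: 154 with a constant of 64, 2527 with array weights, 236 with the interquartile range, 215 without the narrowest arrays, 55 at 2-fold, and 284 to 2570 with 1 array left out. Adjusted calls numbered 2 with array weights and 0 to 4 with 1 array left out. On naproxen 1135 passed: 191 with a constant of 64, 752 after the filter on dim probe sets, 747 with 1 probe set per gene, 332 with the interquartile range, 291 without the narrowest arrays, 88 at 2-fold, and 574 to 2973 with 1 array left out (adjusted calls 0 to 3). Between the drugs 111 passed: 299 with a constant of 1, 8 with 64, 40 after the filter, 55 with 1 probe set per gene, 304 with array weights, 3 at 2-fold, and 98 to 331 with 1 array left out. The split of higher to lower moved with centring, at 346 to 392 on NO-naproxen (632 to 266 with median centring, 144 to 92 with the interquartile range), 170 to 965 on naproxen (371 to 603 with quantile normalization, 463 to 483 with median centring, 139 to 193 with the interquartile range) and 83 to 28 between the drugs (51 to 46 and 55 to 46).

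Reversed log2 fold changes on NO-naproxen were Crp at -0.02 with array weights, Il1r1 at -0.15 and Lcn2 at 0.02 with the interquartile range, and Il6st at -0.09 and Crp at -0.02 without the narrowest arrays. On naproxen they were A2m at 0.07 and Crp at 0.01 with quantile normalization, A2m at 0, Orm1 at 0.03 and Crp at 0.09 with median centring, Il1r1 at -0.19, Il6st at -0.01, Lcn2 at 0.1 and A2m at 0.09 with the interquartile range, and Il1r1 at -0.03, Il6st at -0.13 and A2m at 0.12 without the narrowest arrays. Between the drugs Il1rn was -0.03 with quantile normalization, Il6st -0.01 with median centring and Stat3 0.08 with array weights. With 1 array left out, ranges crossing 0 were, on NO-naproxen, Orm1 -0.02 to 0.23 and Crp -0.02 to 0.07. On naproxen they were Il1r1 -0.09 to 0.21, Socs3 -0.06 to 0.51, A2m -0.4 to 0.17, Orm1 -0.19 to 0.06 and Crp -0.05 to 0. Between the drugs they were Il1rn -0.1 to 0.23, Il1r1 -0.06 to 0.24, Il6r -0.13 to 0.18, Il6st -0.07 to 0.13, Stat3 -0.14 to 0.05 and Lcn2 -0.32 to 0.03.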

Other observations

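The leukaemia inhibitory factor receptor Lifr, a partner of Il6st, varied more within each diet than between the diets. It measured 13.22, 11.55, 11.56 and 12.82 in NO-naproxen livers, 12.83, 11.55, 10.85 and 11.35 in naproxen livers, and 12.93, 12.07, 11.76 and 10.97 in control livers. Replicate 1 was the highest of each diet, and the labels tie that number to no shared litter or day. The log2 fold changes over control were 0.35 ± 0.47 for NO-naproxen and -0.29 ± 0.47 for naproxen (limma, SE), and neither passed the unadjusted threshold.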
